A study of Mus musculus with 6 samples.

Results

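The genes described here carry out the oxidation of long- and medium-chain fatty acids inside liver mitochondria. They are Cpt2 and Slc25a20 of the carnitine shuttle, the acyl-CoA dehydrogenases Acadvl, Acadl, Acadm and Acads, the trifunctional protein subunits Hadha and Hadhb, the thiolase Acaa2 and the enoyl-CoA isomerase Eci1. Every probeset annotated to exactly 1 of these 10 symbols was taken, without regard to its values, which gave 17 of the 45037 probesets of the array that are not controls. The symbols cover 10 of the 18193 genes that have a probeset of their own. Total RNA from the livers of 3 KRAP-/- mice and of 3 wild-type mice, each a littermate of one of them, was hybridized to Affymetrix whole-genome mouse arrays, 1 per mouse. In the KRAP-/- mice a stretch of coding exons of KRAP, a cytoskeleton-associated protein, is replaced in every tissue by a neomycin resistance cassette, and the line was backcrossed to C57BL6/J. All 6 mice were 32 weeks old and ate normal chow. The study set each KRAP-/- mouse against its own littermate, and the comparison asks how the liver transcriptome differs with the genotype.

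Long-chain fatty acids cross the inner mitochondrial membrane only as carnitine esters. Carnitine palmitoyltransferase 1 on the outer membrane makes the ester, the carrier Slc25a20 exchanges it for free carnitine, and Cpt2 on the inner membrane turns it back into acyl-CoA. The acyl-CoA is then shortened in a repeating cycle of dehydrogenation, hydration, a second dehydrogenation and thiolytic cleavage, and the electrons pass through the electron transfer flavoprotein into the respiratory chain. In liver the acetyl-CoA made in this way feeds ketone body synthesis during fasting. Many of the genes are known targets of the nuclear receptor PPAR alpha, and malonyl-CoA, the product of acetyl-CoA carboxylase, inhibits the entry step.

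Signals are given in units of the median signal of the same array, and because probes differ in how they bind, levels are compared between mice and not between genes. The log2 difference of a probeset, its log2 fold change, is KRAP-/- minus wild-type, fitted in limma with littermates blocked, and the adjusted p-values were corrected with the Benjamini-Hochberg method over the 28531 probesets whose mean signal was at least 0.5. The 3 pairs limit the precision. The only probeset of KRAP itself, a gene now listed as Itprid2, read 20.0 to 21.6 in KRAP-/- liver and 22.3 to 24.5 in wild-type liver. Since it is not known whether this probeset lies in the deleted exons, it does not check the labels. The summed signal of 5 hepatocyte markers was 3224 to 3612 in KRAP-/- liver and 3309 to 3365 in wild-type liver, so the tissue read as liver on all 6 arrays. Over all tested probesets each array correlated with the other 5 at a mean r of 0.95.

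A RefSeq promoter window (GRCm38.p6) was matched for 9 of the 10 genes. Hadha and Hadhb lie head to head on chromosome 5, with 272 bases between their annotated first transcribed bases, and so they share their upstream sequence. The 250 bases before Hadhb and before Slc25a20, the gene with the largest difference between the genotypes, are shown because the window of Hadhb also holds most of that of Hadha (228 shared bases). Capitals mark the letters GGGCGG or their reverse complement, known as a GC box.
Hadhb, chr5:30155003-30155252, plus strand: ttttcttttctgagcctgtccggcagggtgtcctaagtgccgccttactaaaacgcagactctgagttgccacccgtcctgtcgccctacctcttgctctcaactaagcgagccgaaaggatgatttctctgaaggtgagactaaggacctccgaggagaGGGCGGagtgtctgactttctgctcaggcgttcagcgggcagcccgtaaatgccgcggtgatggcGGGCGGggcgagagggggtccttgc
Slc25a20, chr9:108661886-108662135, plus strand: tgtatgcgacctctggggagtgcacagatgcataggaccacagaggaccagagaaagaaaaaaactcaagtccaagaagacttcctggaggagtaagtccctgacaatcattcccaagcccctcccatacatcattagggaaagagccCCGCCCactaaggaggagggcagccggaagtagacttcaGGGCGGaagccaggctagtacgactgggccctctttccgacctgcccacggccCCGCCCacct

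On both strands, 4 motifs, chosen after the expression values had been seen, were searched in the 250 bases before the start. The GC box was present in 7 of the 9 windows, all but those of Acadm and Acadvl, against 32.7% of all 32851 promoter windows of the same length. The only GC box of Hadha is the same site as the one farther upstream of Hadhb, so 1 site counts for both windows. Neither the TATA box TATAAA, nor a direct repeat of the nuclear receptor half-site AGGNCA with 1 base between, nor the extended half-site TCAAGGTCA was present in any of the 9 windows, and these were found in 12.4%, 0.338% and 0.387% of all windows. The last 2 motifs both hold letters of the half-site. The windows held 8 to 25 CpG dinucleotides, against a median of 6 over all windows, and 49.6% to 68.0% of their bases were G or C, against a median of 52.4%. These letters are a description of the windows and say nothing about which factors bind there.

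Differences in expression of the 10 genes between the genotypes were small. None of the 17 probesets passed the test (limma, adjusted p under 0.05), against 1.41% of all probesets tested, 0.431% higher and 0.978% lower. At an unadjusted p under 0.05, 4 of the 17 were higher in KRAP-/- liver and 0 were lower, against 5.58% and 9.30% of all probesets. All 17 were bright enough to be tested. At the brightest probeset of each gene, 9 of 10 log2 differences lay above 0, with a median of 0.13 and a range of −0.03 to 0.44, while the median over the 13217 genes tested was −0.08 and 37.9% of these lay above 0. The 95% intervals of the 10 genes ran from 0.845-fold to 1.61-fold. Kupffer cell markers moved with the genotype beside this. Their summed signal was 112 to 116 in KRAP-/- liver and 134 to 158 in wild-type liver, with 1 of 5 (Clec4f) past the threshold. In whole liver, fewer cells of a type and less RNA per cell cannot be told apart, and the part of this in the values of the 10 genes was not tested.

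**Figure D1:**
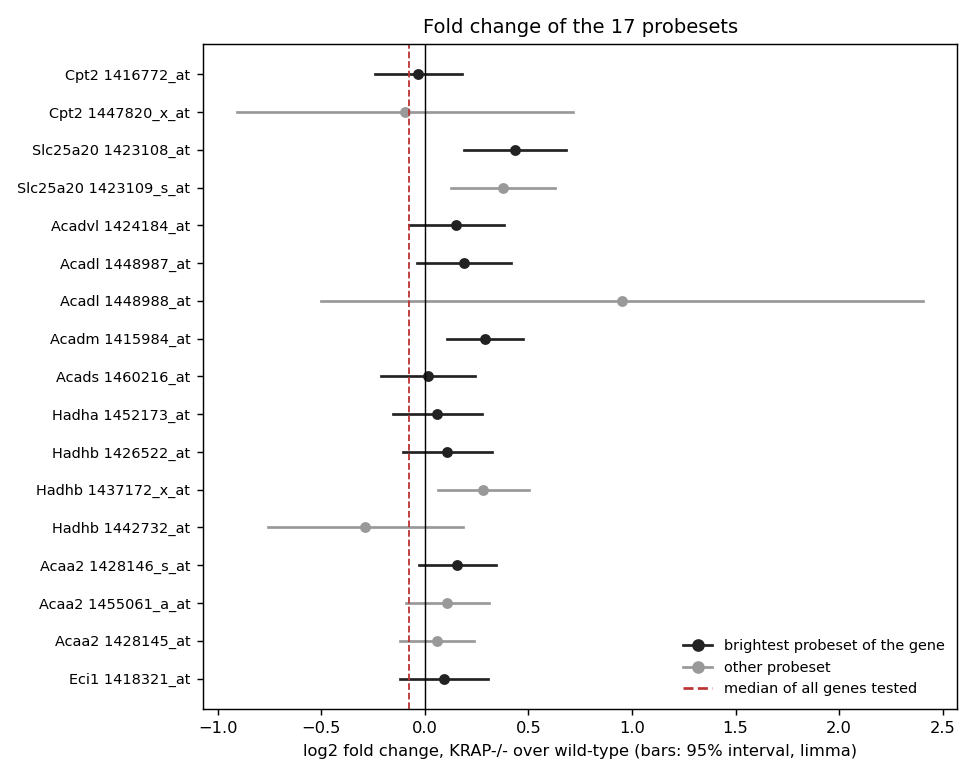
Log2 fold change of KRAP-/- over wild-type liver (x axis) for each of the 17 probesets (rows), with 95% intervals from limma. Black marks the brightest probeset of a gene, grey the others, and the dashed line the median of all 13217 genes tested (−0.08). The points of the brightest probesets lie between −0.03 and 0.44.

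The carnitine-acylcarnitine carrier Slc25a20 had the largest difference of the 10 genes. Its brighter probeset (1423108_at) read 131, 119.8 and 125 in the KRAP-/- livers of pairs 1, 2 and 3, against 86.5, 78.5 and 116 in their wild-type littermates. All KRAP-/- livers lay above all wild-type livers, but the wild-type liver of pair 3 came close to them. The means were 125 ± 5.53 and 93.7 ± 19.8 (SD, n = 3 each), a log2 difference of 0.44 with an SE of 0.11, a 95% interval of 1.14-fold to 1.61-fold and adjusted p = 0.10 from limma. The dimmer probeset (1423109_s_at) gave 57.8, 58.1 and 58.3 in KRAP-/- livers, against 38.4, 41.5 and 56.1 in wild-type livers. It had a log2 difference of 0.38 (adjusted p = 0.16 from limma). The 2 probesets ran closely together over the 6 arrays (r = 0.95). Without pair 3 both passed the test, with log2 differences of 0.60 (adjusted p = 0.0067) and 0.54 (adjusted p = 0.019 from limma). Without pair 1 or pair 2 neither passed, with log2 differences of 0.27 to 0.36.

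Carnitine palmitoyltransferase 2, which remakes acyl-CoA inside the mitochondrion, was at a like level in both genotypes. Cpt2 read 71.9, 71.5 and 73.3 in KRAP-/- livers, against 70.1, 66.5 and 86.5 in wild-type livers (probeset 1416772_at). Its log2 difference was −0.03, with a 95% interval of 0.845-fold to 1.13-fold and adjusted p = 0.91 from limma, and its sign turned with the scaling of the arrays, to 0.02 with the signals as deposited and 0.03 with quantile normalization. A second, dim probeset of Cpt2 (1447820_x_at) read 1.04 to 1.93 in KRAP-/- livers and 1.0 to 1.77 in wild-type livers (log2 difference −0.10, adjusted p = 0.93 from limma), and it did not follow the brighter one over the 6 arrays (r = −0.61).

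**Figure D2:**
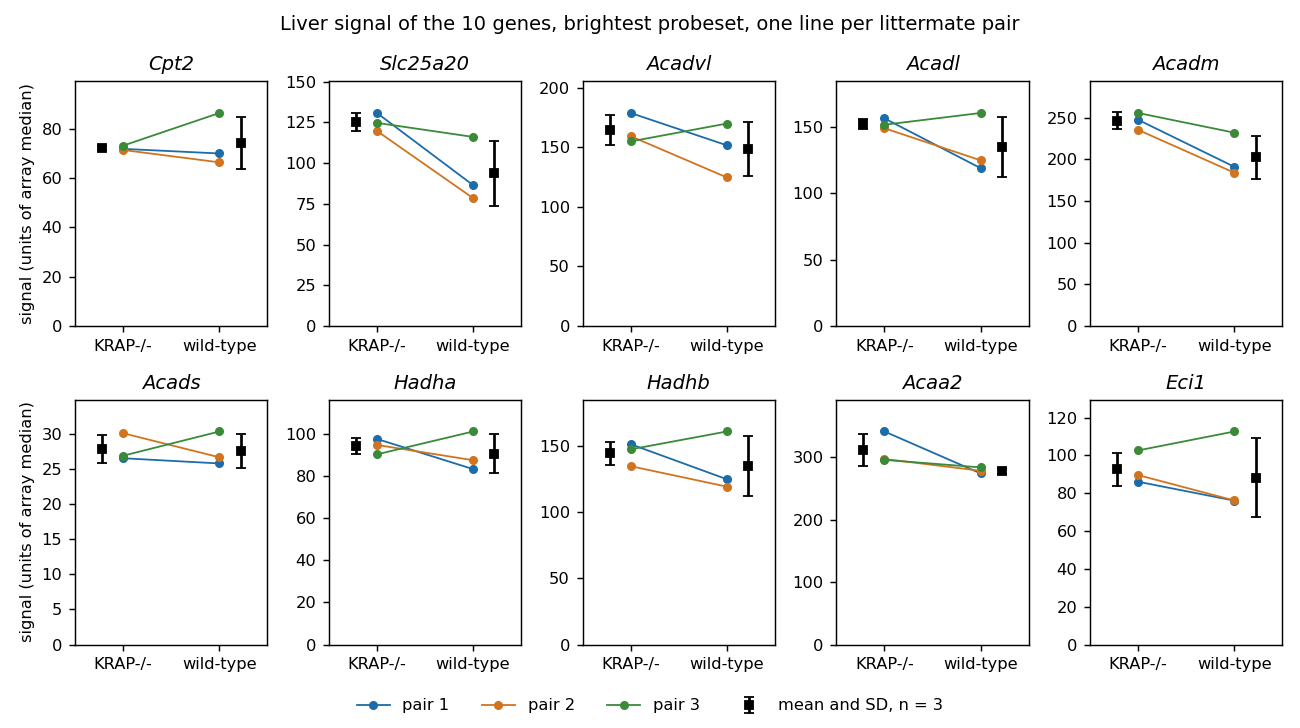
Signal in units of the array median (y axis, from 0) of the 10 genes at their brightest probesets in KRAP-/- and wild-type liver. Each coloured point is 1 mouse with a line to its littermate, and black squares with bars are the mean and SD of 3 mice. The wild-type liver of pair 3 (green) is the highest of the 3 wild-type livers in every panel, while the KRAP-/- livers of Slc25a20, Acadm and Acaa2 lie above all wild-type livers.

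Among the acyl-CoA dehydrogenases, which catalyse the first step of the cycle at different chain lengths, the medium-chain enzyme Acadm differed most. Acadm read 247, 235 and 255 in KRAP-/- livers, against 191, 184 and 232 in wild-type livers, again without overlap and with the wild-type liver of pair 3 closest. The means were 246 ± 10.2 and 202 ± 25.9 (SD, n = 3 each), a log2 difference of 0.29 with an SE of 0.08, a 95% interval of 1.08-fold to 1.39-fold and adjusted p = 0.14 from limma. The very-long-chain enzyme Acadvl, which is bound to the inner membrane, read 179, 159 and 155 in KRAP-/- livers, against 152, 125 and 170.0 in wild-type livers. The genotypes overlapped, and the log2 difference was 0.15 with an SE of 0.10, adjusted p = 0.53 from limma.

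The long-chain enzyme Acadl read 156, 149 and 152 in KRAP-/- livers, against 119, 125 and 161 in wild-type livers. Here the wild-type liver of pair 3 was above all the others, and the log2 difference was 0.19 with an SE of 0.10, adjusted p = 0.42 from limma. Its other probeset (1448988_at) was dim, at 0.543 to 0.897 in KRAP-/- livers and 0.192 to 0.572 in wild-type livers. This is not shown to be above background, and its log2 difference of 0.95 had a 95% interval of −0.50 to 2.41 (adjusted p = 0.53 from limma). The short-chain enzyme Acads was nearly equal in both genotypes. It read 26.5, 30.1 and 26.9 in KRAP-/- livers, against 25.8, 26.7 and 30.4 in wild-type livers, a log2 difference of 0.01 with a 95% interval of 0.862-fold to 1.18-fold and adjusted p = 0.97 from limma.

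The trifunctional protein, built from Hadha and Hadhb, holds the hydratase, hydroxyacyl-CoA dehydrogenase and thiolase activities for long chains. Hadha, the subunit with the hydratase and dehydrogenase sites, read 97.5, 94.6 and 90.2 in KRAP-/- livers, against 83.2, 87.4 and 101 in wild-type livers. The ranges overlapped, with a log2 difference of 0.06, a 95% interval of 0.899-fold to 1.21-fold and adjusted p = 0.81 from limma. Hadhb, the thiolase subunit, read 152, 135 and 148 in KRAP-/- livers, against 125, 119 and 161 in wild-type livers at its brightest probeset (1426522_at). The log2 difference was 0.11, adjusted p = 0.63 from limma. Over the 6 arrays the signals of these 2 genes correlated at r = 0.84. Each correlated more closely with Acadl, which lies on chromosome 1 (r = 0.916 for Hadha and 0.918 for Hadhb). The part of their shared upstream sequence in this was not tested.

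The 3 probesets of Hadhb did not give the same picture. A second (1437172_x_at) read 91.8, 132 and 133 in KRAP-/- livers, against 88.7, 94.6 and 107 in wild-type livers, a log2 difference of 0.28, adjusted p = 0.22 from limma. Its _x_at ending marks probes that may also bind other transcripts. The dimmest (1442732_at) read 2.33, 2.87 and 2.91 in KRAP-/- livers, against 2.12, 3.44 and 4.86 in wild-type livers, a log2 difference of −0.29 (adjusted p = 0.56 from limma). Their correlations with each other over the 6 arrays were 0.27 to 0.38.

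Acaa2, the matrix thiolase that cleaves medium-chain ketoacyl-CoA, read 341, 297 and 295 in KRAP-/- livers, against 274, 278 and 283 in wild-type livers at its brightest probeset (1428146_s_at). No wild-type liver reached the KRAP-/- livers here, and the log2 difference was 0.16 with an SE of 0.08, adjusted p = 0.42 from limma. At its 2 dimmer probesets the genotypes overlapped. The first of these (1455061_a_at) read 189, 166 and 192 in KRAP-/- livers, against 155, 154 and 202 in wild-type livers, with a log2 difference of 0.11, and the other (1428145_at) 174, 183 and 179 against 171, 164 and 179.8, with a log2 difference of 0.06 (adjusted p = 0.62 and 0.78 from limma). Eci1, which moves double bonds of unsaturated fatty acids into the position the cycle needs, read 86.0, 89.6 and 103 in KRAP-/- livers, against 76.0, 76.1 and 113 in wild-type livers. In pair 3 both littermates were higher than the mice of the other pairs, and the log2 difference was 0.09, adjusted p = 0.69 from limma.

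With signals scaled to the array median, the direction of the difference depended on the littermate pair. At their brightest probesets all 10 genes were higher in the KRAP-/- mouse in pair 1 (log2 ratios of 0.04 to 0.60, median 0.26) and in pair 2 (0.09 to 0.61, median 0.21), and 23.4% of all genes were higher in both of these pairs. In pair 3, 3 genes were higher and 7 were lower (−0.24 to 0.14, median −0.13). The array medians of this pair were 21.6 for the KRAP-/- liver and 19.1 for the wild-type liver, so the scaling lowered each of its ratios. A ratio near 0 can change sign in this way, and the signs in pair 3 with the signals as deposited were not counted. The medians over all genes tested were −0.07, −0.06 and −0.09 in pairs 1, 2 and 3. At these probesets Slc25a20, Acadm and Acaa2 were the 3 genes higher in all pairs and none was lower in all, against 11.6% and 26.9% of all genes. The dimmer probesets of Acaa2 were slightly lower in pair 3 (log2 ratios of −0.08 and −0.01). Higher in pairs 1 and 2 and lower in pair 3 were 7 of the 10, against 11.8% of all genes. Over all probesets of the 10 genes, 6 of 17 were higher in all 3 pairs and 0 were lower in all 3, against 15.3% and 22.4% of the probesets tested. Every KRAP-/- liver lay above every wild-type liver for 4 of 17 and below for 0, against 7.80% and 12.3% of the probesets tested. At the brightest probesets 3 of 10 lay above, against 5.57% of all genes. None of the 17 reached the study's limit of 1.5-fold in all 3 pairs in either direction, against 1.12% of the probesets tested for higher and 1.38% for lower. Probesets of 1 gene measure the same transcripts, and the 10 genes share the arrays and mostly varied together. The counts by probeset and by gene are therefore not independent.

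**Figure D3:**
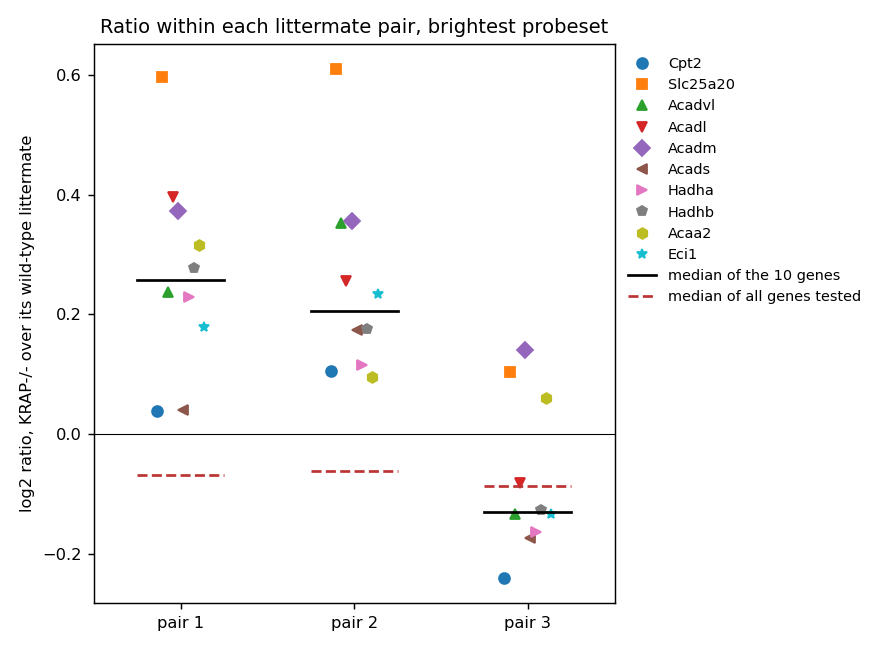
Log2 ratio of each KRAP-/- mouse to its wild-type littermate (y axis) for the 10 genes, by pair, with signals scaled to the array median. Black bars are the medians of the 10 genes (0.26, 0.21 and −0.13) and dashed bars those of all genes tested. All 10 points lie above 0 in pairs 1 and 2, and 7 lie below 0 in pair 3.

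With signals scaled to the array median, the wild-type liver of pair 3 lay apart from the other wild-type livers for these genes. The counts of this pattern were chosen after the values were seen. With each gene centred on its mean over the 6 arrays, the mean log2 signal of the 10 genes was 0.10, 0.04 and 0.07 in the KRAP-/- livers of pairs 1, 2 and 3, against −0.16, −0.20 and 0.15 in the wild-type livers. All 10 genes lay below their own mean in the wild-type livers of pairs 1 and 2, and 9 lay above it in that of pair 3. This array was the highest of the 6 for 6 of the 10 genes, against 16.9% of all genes, and the spread of the log2 signals was larger among wild-type than among KRAP-/- livers for 9 of the 10, against 52.1% of all genes. It did not stand apart over all probesets, with r of 0.952 to 0.956 with the other arrays. Its median centred log2 signal over all genes was 0.03, and those of the other arrays were −0.06 to 0.09. The 3′ over 5′ signal of the control transcripts, a sign of RNA integrity, was 2.05 for beta-actin and 0.729 for Gapdh on it, and 2.01 to 2.65 and 0.709 to 0.795 on the other 5 arrays. Before scaling, the median signal of this array was 19.1, the lowest of the 6, and those of the other 5 were 20.2 to 23.4. Dividing by a lower median raises all scaled signals of an array. The place of this array for the 10 genes with the signals as deposited was not worked out.

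**Figure D4:**
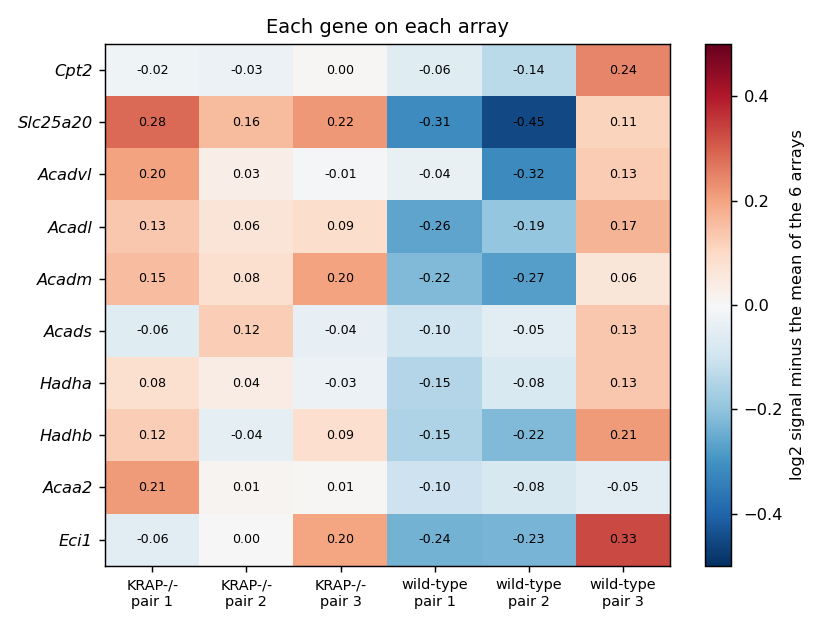
Log2 signal, scaled to the array median, of the 10 genes (rows) on the 6 arrays (columns), each minus the mean of the gene over the 6 arrays. The wild-type livers of pairs 1 and 2 are below 0 for all 10 genes, and that of pair 3 is above 0 for all but Acaa2.

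Markers of adipocytes and muscle, other than Fabp4, gave little signal. The summed signal of the 4 adipocyte markers read was 9.05 to 10.8 in KRAP-/- livers and 8.83 to 28.8 in wild-type livers, and that of 5 muscle markers was 2.04 to 2.24 and 1.05 to 6.60 in the same order of genotypes. In both lists the wild-type liver of pair 3 had the lowest sum, and that of pair 1 the highest. Fabp4 made up most of the adipocyte sum, at 8.16 to 10.2 in KRAP-/- livers and 7.81 to 22.8 in wild-type livers. Of the muscle markers, Myh6, Tnnt3 and Mb were too dim to be tested. Adipoq, which defines fat cells, read 0.0318 to 0.253 in KRAP-/- livers and 0.444 to 2.20 in wild-type livers, and Ucp1, which defines brown fat cells, 0.0616 to 0.176 and 0.235 to 2.35. Both were without overlap but did not pass (adjusted p = 0.25 and 0.38 from limma), and several of these readings lie near or under the floor of 0.1. The other markers of the list, Fabp4 and Cidea, overlapped, and both were higher in the KRAP-/- mouse of pair 3. The part of fat or muscle cells in the values of the 10 genes was not tested.

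Most of the 10 genes varied together over the 6 arrays. Of their 45 pairwise correlations of log2 signals 43 were above 0 and 14 above 0.80, with a median of 0.69. The closest were Slc25a20 and Acadm (r = 0.99) and Slc25a20 and Acadl (r = 0.92), and the farthest apart were Acads and Acaa2 (r = −0.07). The 6 points share the arrays, their scaling and the genotype difference, so these values are descriptions. Among 13162 other genes, those whose brightest tested probeset was most like the mean pattern of the 10 were Nudcd2, Skil, Slc6a16, Sec62 and Chrna2, with r of 0.98 to 0.99 over 6 arrays. Of these, Nudcd2 read 35.02, 32.3 and 34.1 in KRAP-/- livers, against 28.6, 27.5 and 36.7 in wild-type livers, and so had the same high wild-type liver in pair 3. Slc6a16 and Chrna2 were dim, at most 1.20 and 2.98 on any array.

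Of 32 further genes around this pathway, 28 had a probeset of their own and the other 4 were not analysed here. At the brightest probeset 3 of the 28 fell and 0 rose (limma, adjusted p under 0.05), against 1.64% of all genes in either direction. The median log2 difference of the 28 was 0.08, with 17 above 0 and 11 below. Of 59 tested probesets of these genes, the same 3 fell and none rose. None of the 3 passed with dim probesets kept or without the intensity trend (adjusted p of 0.38 to 0.43 from limma). No probeset of the whole array passed under these settings, so this is not particular to the 3 genes.

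Entry into the pathway starts with activation to acyl-CoA. Acsl5, an acyl-CoA synthetase, read 124, 119 and 122 in KRAP-/- livers, against 175, 161 and 163 in wild-type livers, with no overlap. It fell by 0.45 on the log2 scale, with an SE of 0.08, adjusted p = 0.026 from limma, and lost the call without pair 2 (adjusted p = 0.064) or with the signals as deposited (adjusted p = 0.16). The liver form of carnitine palmitoyltransferase 1, Cpt1a, at which malonyl-CoA acts, read 111, 104 and 97.9 in KRAP-/- livers, against 72.1, 79.3 and 106 in wild-type livers. Like most of the 10 genes, Cpt1a was high in the wild-type liver of pair 3 at this probeset. Its log2 difference was 0.30 with an SE of 0.13, adjusted p = 0.31 from limma, and with pairs 1, 2 and 3 left out in turn it was 0.14, 0.26 and 0.51 (adjusted p = 0.72, 0.53 and 0.025). Its dimmer probesets, both with the _x_at ending, gave 0.50 and 0.59 (adjusted p = 0.14 and 0.051 from limma). Both were higher in the KRAP-/- mouse in all 3 pairs.

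In the group of other beta-oxidation enzymes 1 of 10 fell and 0 rose, with a median log2 difference of 0.07. The one that fell was Acad9, an acyl-CoA dehydrogenase known chiefly for its role in the assembly of respiratory complex I. It read 15.4, 13.7 and 14.4 in KRAP-/- livers, against 22.99, 20.9 and 19.1 in wild-type livers, a log2 difference of −0.53 with an SE of 0.10, adjusted p = 0.040 from limma. It failed without pair 1 or pair 2 (adjusted p = 0.11 and 0.099) nor with quantile normalization or the signals as deposited (adjusted p = 0.077 and 0.11), and its 2 dimmer probesets, with −0.40 and 1.0, did not pass either (adjusted p = 0.23 and 0.56 from limma). Hadh, the short-chain hydroxyacyl-CoA dehydrogenase, and Echs1, the matrix enoyl-CoA hydratase, had log2 differences of 0.05 and −0.15 (adjusted p = 0.82 and 0.44 from limma). Eci2, a further isomerase of unsaturated chains, was chosen after its values were seen. It read 146, 138 and 139.6 in KRAP-/- livers, against 92.4, 93.5 and 127 in wild-type livers, a log2 difference of 0.46 (adjusted p = 0.085 from limma, and 0.16, 0.17 and 0.0063 with pairs 1, 2 and 3 left out in turn).

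**Figure D5:**
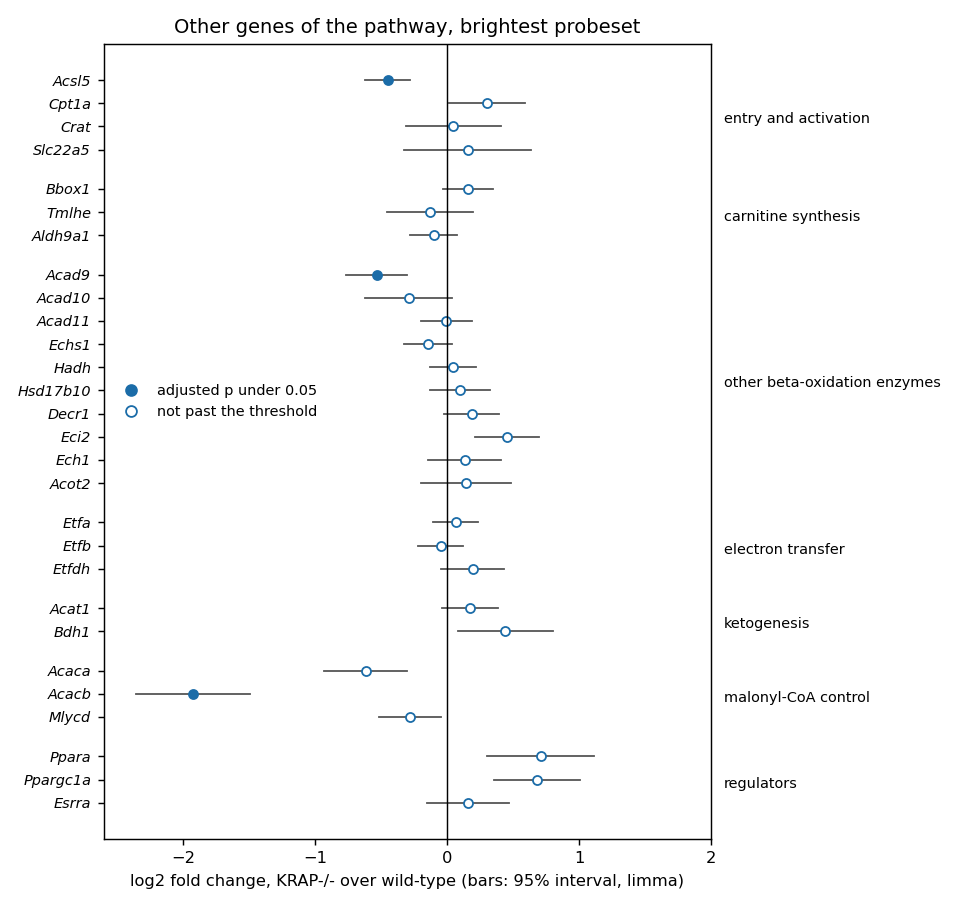
Log2 fold change of KRAP-/- over wild-type liver (x axis) of 28 further genes around the pathway (rows, in 7 groups), each at its brightest probeset, with 95% intervals from limma. Filled points passed the test (Acsl5, Acad9 and Acacb, all below 0) and open points did not.

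The electron transfer flavoprotein and its dehydrogenase take up the electrons of the first step. None of Etfa, Etfb and Etfdh passed (limma, with 0 also at an unadjusted p under 0.05), with log2 differences of −0.05 to 0.19. Of ketone body synthesis, Acat1 and Bdh1 were read and did not pass. Bdh1, the hydroxybutyrate dehydrogenase, was also chosen after its values were seen. It read 99.3, 102 and 102 in KRAP-/- livers, against 54.1, 68.3 and 111 in wild-type livers, a log2 difference of 0.44 (adjusted p = 0.24 from limma). With pairs 1, 2 and 3 left out in turn it was 0.23, 0.38 and 0.72 (adjusted p = 0.56, 0.34 and 0.0042). The dimmer probeset of Bdh1 gave 0.25 (adjusted p = 0.45 from limma). None of the 3 carnitine synthesis genes passed, with a median of −0.10. Of the 28 genes, 10 were higher in KRAP-/- mice in pairs 1 and 2 and lower in pair 3, against 11.8% of all genes. This pattern was chosen after the values were seen, and the ratios of pair 3 also depend on the scaling of the arrays.

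Malonyl-CoA is made by acetyl-CoA carboxylases and removed by Mlycd. Acacb, the carboxylase at the mitochondrial surface, read 2.06, 1.94 and 2.90 in KRAP-/- livers, against 8.69, 9.47 and 7.71 in wild-type livers, a log2 difference of −1.92 (adjusted p = 0.0029 from limma). The fall of Acacb was present in pair 3 as well (log2 ratio −1.41). In that pair Cpt1a and 7 of the 10 genes were lower in the KRAP-/- mouse at their brightest probesets. These signs hold for signals scaled to the array median, which lowered each ratio of pair 3. The dimmer probesets of Cpt1a were higher there (log2 ratios of 0.42 and 0.49), and a link between Acacb and these genes was not tested. Acaca, the cytosolic carboxylase, had −0.62 (adjusted p = 0.073 from limma, and 0.21, 0.091 and 0.0062 with pairs 1, 2 and 3 left out in turn) and −0.01 at its dimmer probeset, and Mlycd had −0.28 (adjusted p = 0.26 from limma).

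Of the regulators, Ppara, the receptor that activates many of these genes, read 96.1, 92.0 and 83.1 in KRAP-/- livers, against 38.1, 58.7 and 75.0 in wild-type livers. The genotypes did not overlap at this probeset, and the wild-type liver of pair 3 was again the highest of the wild-type livers. The log2 difference was 0.71 with an SE of 0.18, adjusted p = 0.10 from limma. With pairs 1, 2 and 3 left out in turn it was 0.40, 0.74 and 0.99 (adjusted p = 0.15, 0.025 and 0.0030). Its dimmer probesets gave 0.66, without overlap, and 0.29, with overlap (adjusted p = 0.054 and 0.33 from limma). Ppargc1a, a coactivator of oxidative genes, read 7.30, 7.19 and 8.27 in KRAP-/- livers, against 4.44, 5.31 and 4.46 in wild-type livers, and so was not high in the wild-type liver of pair 3. Its log2 difference was 0.68 with an SE of 0.14, adjusted p = 0.060 in limma with littermates blocked and 0.040 without the block. With pairs 1, 2 and 3 left out in turn the adjusted p from limma was 0.12, 0.025 and 0.11. The dimmer probesets of Ppargc1a gave smaller differences, 0.55 and 0.51 without overlap, and 0.50 and 0.34 with overlap. None of these passed (adjusted p = 0.24, 0.27, 0.16 and 0.44 from limma, in the same order). Esrra, a nuclear receptor of oxidative metabolism, had 0.16 (adjusted p = 0.63 from limma), and −0.17 at its dimmer probeset (adjusted p = 0.79 from limma).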

How the data were processed

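Total RNA of 6 livers was measured on Affymetrix whole-genome mouse arrays, 1 per animal. The authors deposited 1 signal intensity per probeset and array on a linear scale, made with GCOS. The scaling per chip and per gene that the methods describe is not in them, and the GCOS version and algorithm are not given in the sources used here. Signals were scaled to an array median of 1, and the 64 controls were dropped. After a floor of 0.1 and a log2 step, the 28531 probesets averaging 0.5 or more entered limma 3.58.1 in R 4.3.3, with littermates blocked, an intensity trend and Benjamini-Hochberg adjustment, threshold 0.05. The fit was tested on simulated data. The pairing comes from the series' design, and the correlations of littermates' deviations from the genotype means were 0.043, 0.0095 and −0.012. Alternatives were other scalings and floors, a pseudocount of 0.25, a mean of at least 1 or no limit, no block, no trend, robust moderation, no _x_at probesets and leaving out each pair. Of the 45037 probesets, 34945 had 1 gene symbol, 932 several and 9160 none, and symbols were updated through Entrez IDs. Promoters came from RefSeq (GRCm38.p6).

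All probesets of the 10 genes are named, and of the 32 further genes those that passed, those beyond 0.5 on the log2 scale, and Cpt1a, Hadh, Echs1 and Acacb. Eci2, Bdh1, Acat1, Mlycd, Esrra, Etfa, Etfb and Etfdh lie outside this rule and were named after their values were seen. The 10 genes and all lists were chosen with earlier results of these data known. Pancreatic acinar markers, also listed, summed to 1.19 to 4.22 in KRAP-/- livers and 2.72 to 3.82 in wild-type livers. Python 3.11.15 was used for tables, with pandas 2.3.3 on numpy 2.4.6, and for plots, with matplotlib 3.10.9.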

Additional observations from a re-analysis of the deposited data

How the results depend on the processing

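The limma fit called 123 of all tested probesets higher in KRAP-/- liver and 279 lower, against 170 and 205 with the signals as deposited and 151 and 208 with quantile normalization. No probeset was higher (0) or lower (0) when dim probesets were not left out or when the trend was dropped, where 4551 and 3089 were under an unadjusted p of 0.05. Leaving out each pair in turn gave 123 to 295 higher and 288 to 469 lower (186 and 349 without pair 2, 295 and 469 without pair 3). Without the pair as a block the counts were 93 and 255, and Acsl5, Acad9 and Acacb still passed. Apart from Ppargc1a, no named gene of the pathway changed between passing and not passing at its brightest probeset. Of the 17 probesets of the 10 genes, 0 to 2 passed when each pair was left out, the 2 being those of Slc25a20 without pair 3, and 0 passed under every other alternative. Of the 17, 16 were tested without pair 3 and with a mean of at least 1, and 15 without _x_at probesets. At the brightest probesets all 10 genes lay above 0 with the signals as deposited and with quantile normalization, and 8 to 10 when each pair was left out. The median log2 fold change of the 10 genes was 0.06 to 0.22 when each pair was left out. The sign turned for 4 probesets of the 10 genes and for Etfb (0.00087 with the signals as deposited). Cpt2 at 1416772_at gave 0.018 with the signals as deposited and 0.032 with quantile normalization, and −0.10 to 0.072 when each pair was left out (0.072 without pair 3). Leaving out pairs gave −0.62 to 0.23 for Cpt2 at 1447820_x_at (0.10 without pair 1, 0.23 without pair 2), −0.067 to 0.11 for Acads (−0.067 without pair 2) and −0.024 to 0.17 for Hadha (−0.024 without pair 1). The causes were not tested. Values near an array's dim end, such as the dimmer probeset of Acadl, are limited by background.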
